A study of Drosophila melanogaster with 53 samples.

Results

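The genes examined here encode mitochondrial ribosomal proteins of Drosophila melanogaster. They were chosen by name, as every gene of the deposited gene table whose symbol starts with mRpS or mRpL followed by a digit, and they number 72 of 15598 genes, with 91 of the 28704 transcripts listed. By their names, 26 belong to the small subunit (mRpS) and 46 to the large subunit (mRpL). The RNA came from S2 cells, a line derived from Drosophila embryos with hemocyte-like features. One group was given the hormone 20-hydroxyecdysone (20E) at 0.3 µM for 1 h and the other the same volume of its solvent, DMSO, and neither group received dsRNA. The labels give 2 polyA RNA-seq libraries per condition and do not say whether they came from separate cultures. The deposited tables hold 1 FPKM column per condition, that is fragments scaled by transcript length and by the number of mapped fragments, so each value below is the authors' value for a condition and carries no SD. The only error available is the lower and upper confidence bound that the authors gave for each gene, called bounds below. No p-value was computed.

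Mitochondria carry their own ribosome, which translates the few proteins encoded by the mitochondrial genome, all of them parts of the respiratory chain and the ATP synthase. In animals the ribosomal RNAs of this particle come from the mitochondrial genome, whereas every one of its proteins is encoded in the nucleus, made in the cytosol and imported, usually with the help of a positively charged N-terminal presequence. A part of these proteins descends from the bacterial ribosome, and the rest is found only in mitochondrial ribosomes. 20E is the steroid hormone that drives molting and metamorphosis in insects, and an hour of treatment covers its early response.

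The cells and the treatment were first checked on genes outside the family. All 6 early 20E response genes examined (Eip74EF, Eip75B, vri, Hr46, Hr4 and br) were higher in 20E cells with bounds that did not overlap, at a median of 59.8 FPKM in 20E cells and 9.89 FPKM in DMSO cells. Of 7 hemocyte genes sought, 6 were listed. The GATA factor gene srp, the peroxidasin gene Pxn and the scavenger receptor gene crq lay at 96.9 FPKM or more in 20E cells and at 93.3 FPKM or more in DMSO cells. The hemolectin gene Hml, in contrast, was near 0, with 0.0944 FPKM in 20E cells and 0.104 FPKM in DMSO cells. The hemocyte gene He was low as well, with 2.52 FPKM in 20E cells and 4.11 FPKM in DMSO cells. The phagocytosis receptor gene eater was the only one of the 6 with bounds apart, with 13.8 FPKM (10.6 to 17 FPKM) in 20E cells and 8.20 FPKM (6.21 to 10.2 FPKM) in DMSO cells. The relative depth of the columns was estimated from the low FPKM values, on the reading that these fall on steps worth 1 fragment. The size of the step was fitted to these same values in each column. In 20E cells, 77.2% of 492 low values were whole multiples of the fitted step within 0.15 of a step. In DMSO cells, 89.8% of 561 values were. A step fixed in advance would give 30% by chance, but a fitted step gives more, so these shares do not test the steps. By the fitted steps a given FPKM rests on about 1.49 times more fragments in 20E cells than in DMSO cells. The member with the fewest fragments, mRpL54, rested on about 1110 fragments in 20E cells and 642 fragments in DMSO cells. The read counts themselves were not used here.

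All 72 genes were expressed. Their median level was 64.4 FPKM in 20E cells and 61.8 FPKM in DMSO cells, and every member was above 15 FPKM in both conditions. The lowest was mRpL50 at 18.5 FPKM in 20E cells and mRpL54 at 15.7 FPKM in DMSO cells, and the highest was mRpL34, with 207 FPKM in 20E cells and 238 FPKM in DMSO cells. The members thus spanned an 11.2-fold range in 20E cells and a 15.2-fold range in DMSO cells, although the middle of the distribution was narrow, with an upper quartile 1.74 times the lower quartile in 20E cells and 1.63 times in DMSO cells. Ranked among all genes by level, they occupied places 554 to 4762 in 20E cells and 453 to 5103 in DMSO cells. The SD of log2(FPKM + 1) over the members was 0.70 in 20E cells and 0.73 in DMSO cells. Over the other 4342 genes with a mean level in the same range it was 0.93 in both conditions. All members together made up 0.589% of the summed FPKM in 20E cells and 0.603% in DMSO cells.

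**Figure D1:**
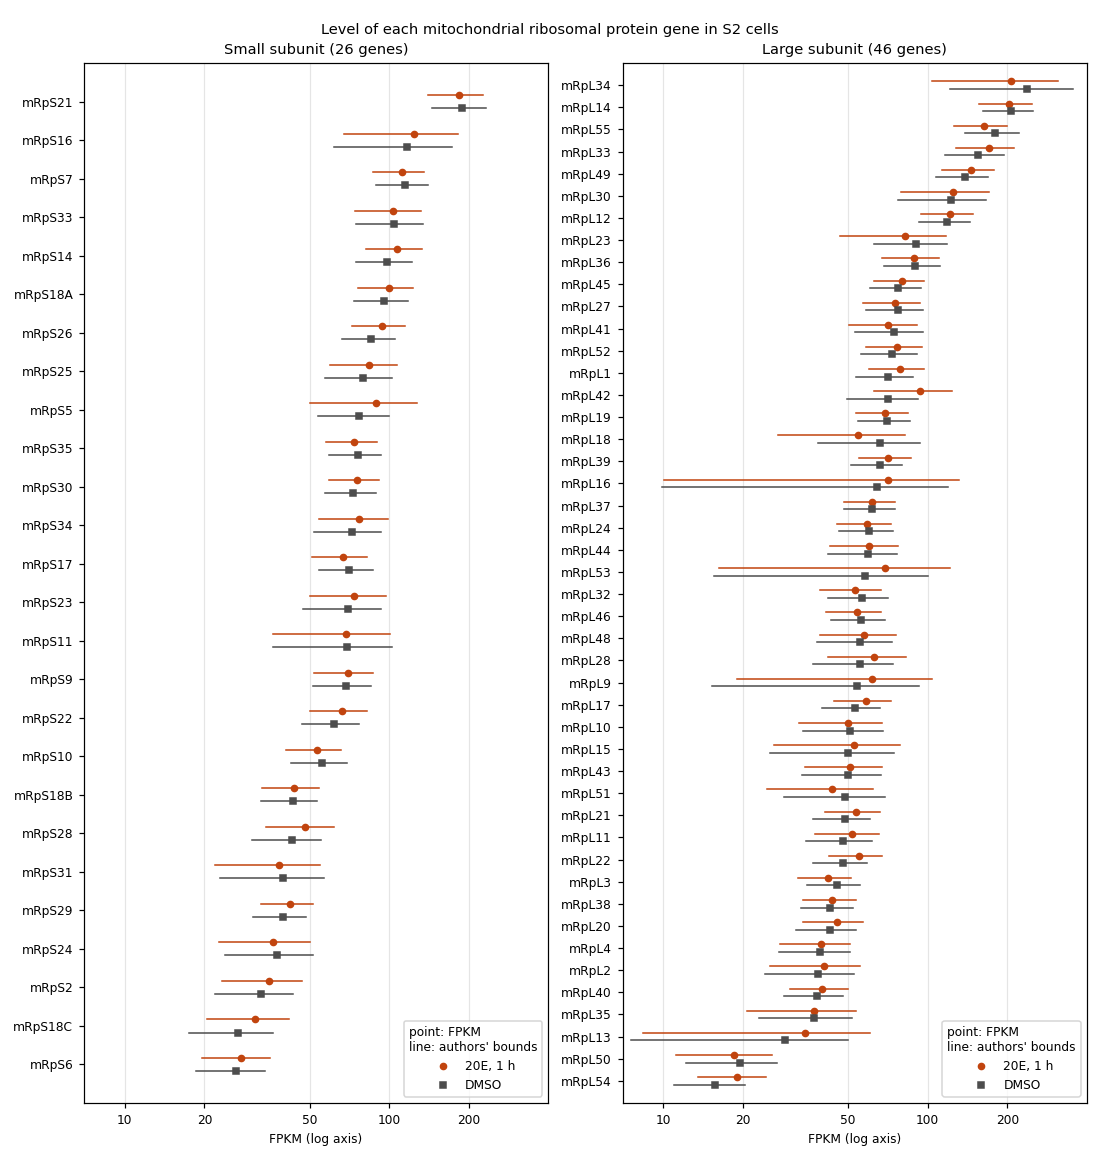
Level of each of the 72 genes in FPKM on a log axis, small subunit on the left and large subunit on the right, in the order of the DMSO level; orange points are 20E cells (1 h), grey squares are DMSO cells and lines run between the authors' bounds. The bounds of both conditions overlap for every gene, and mRpL16, mRpL53, mRpL9 and mRpL13 have the longest lines.

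The median of small subunit genes was slightly above that of large subunit genes. Their median was 71.6 FPKM in 20E cells and 70.4 FPKM in DMSO cells. For large subunit genes the median was 59.5 FPKM in 20E cells and 57.1 FPKM in DMSO cells, which is 0.832 times the small subunit median in 20E cells and 0.811 times in DMSO cells. Both distributions overlapped over most of their length, since the small subunit ran from 27.5 to 184 FPKM in 20E cells and from 26.3 to 189 FPKM in DMSO cells, within the span of the large subunit. Among the 31 members that share no exon base with another listed gene, a selection made after seeing the data, the medians were closer. There the small subunit had 71.2 FPKM in 20E cells and 71.9 FPKM in DMSO cells, and the large subunit had 68.8 FPKM in 20E cells and 69.9 FPKM in DMSO cells.

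Among large subunit genes, the highest levels belonged to mRpL34, mRpL14, mRpL55, mRpL33 and mRpL49. The gene mRpL34 encodes the homologue of one of the smallest bacterial ribosomal proteins. Its level was 207 FPKM (bounds 103 to 311) in 20E cells and 238 FPKM (122 to 354) in DMSO cells. A homologue of a protein of the subunit interface is made from mRpL14, which had 202 FPKM (157 to 248) in 20E cells and 207 FPKM (162 to 251) in DMSO cells. The protein of mRpL55 is needed for larval development in Drosophila. Its gene stood at 163 FPKM (125 to 200) in 20E cells and 180 FPKM (139 to 221) in DMSO cells. Levels of 170 FPKM (128 to 213) in 20E cells and 156 FPKM (116 to 195) in DMSO cells were listed for mRpL33, the gene of another very small protein with a bacterial homologue. The mitochondria-specific mRpL49 came next, with 145 FPKM (113 to 177) in 20E cells and 138 FPKM (108 to 169) in DMSO cells. Each of these 5 genes was above the upper quartile of the large subunit, 78.0 FPKM in 20E cells and 74.3 FPKM in DMSO cells, and their bounds overlapped with one another.

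At the low end of the large subunit were mRpL54, mRpL50, mRpL13, mRpL35 and mRpL40. The mitochondria-specific mRpL54 had 19 FPKM (13.5 to 24.4) in 20E cells and 15.7 FPKM (11 to 20.3) in DMSO cells. Close to it was mRpL50, also specific to mitochondria, with 18.5 FPKM (11.2 to 25.8) in 20E cells and 19.5 FPKM (12.1 to 26.8) in DMSO cells. These 2 genes stood apart from the rest of the family by point value, but their upper bounds reached above the lower bounds of several other members. The remaining values were 34.4 FPKM in 20E cells and 28.8 FPKM in DMSO cells for mRpL13, 37 FPKM in 20E cells and 37.3 FPKM in DMSO cells for mRpL35, and 39.9 FPKM in 20E cells and 38.2 FPKM in DMSO cells for mRpL40. The bounds of mRpL13, whose bacterial homologue binds early in large subunit assembly, were wide, at 8.36 to 60.4 FPKM in 20E cells and 7.56 to 50.0 FPKM in DMSO cells.

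Small subunit genes were headed by mRpS21, which encodes a small protein with a bacterial homologue. It had 184 FPKM (141 to 226) in 20E cells and 189 FPKM (145 to 232) in DMSO cells. The next 4 were mRpS16, mRpS7, mRpS33 and mRpS14. The level of mRpS16 was 124 FPKM (67.4 to 181) in 20E cells and 117 FPKM (61.9 to 172) in DMSO cells. For mRpS7, the homologue of the bacterial protein that starts assembly of the small subunit head, the values were 111 FPKM (86.9 to 136) in 20E cells and 115 FPKM (89.4 to 140) in DMSO cells. The mitochondria-specific mRpS33 was at 103 FPKM in 20E cells and 105 FPKM in DMSO cells, and mRpS14, another homologue of a head protein, at 107 FPKM in 20E cells and 98.6 FPKM in DMSO cells. In DMSO cells, the lower bound of mRpS21 was above the upper bound of mRpS7, mRpS33 and mRpS14, and below that of mRpS16.

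The lowest small subunit genes were mRpS6, mRpS18C, mRpS2, mRpS24 and mRpS29. In bacteria, the homologue of mRpS6 binds S18 on the small subunit, and S18 is the homologue of mRpS18A and mRpS18B as well as of mRpS18C. The level of mRpS6 was 27.5 FPKM (19.5 to 35.5) in 20E cells and 26.3 FPKM (18.5 to 34) in DMSO cells, and that of mRpS18C was 31.1 FPKM (20.5 to 41.7) in 20E cells and 26.8 FPKM (17.4 to 36.3) in DMSO cells. Listed at 35.1 FPKM in 20E cells and 32.6 FPKM in DMSO cells, mRpS2 came next. The level of mRpS24 was 36.3 FPKM in 20E cells and 37.6 FPKM in DMSO cells. The human counterpart of mRpS29 is DAP3, a GTP-binding protein also studied in cell death, and the fly gene had 42.1 FPKM in 20E cells and 39.5 FPKM in DMSO cells.

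The family contains 3 lettered paralogs of the bacterial S18 protein. Their levels were 99.6, 43.7 and 31.1 FPKM in 20E cells for mRpS18A, mRpS18B and mRpS18C, against 95.4, 43.1 and 26.8 FPKM in DMSO cells for the same genes. The bounds of mRpS18A (76.4 to 123 FPKM in 20E cells and 73.3 to 118 FPKM in DMSO cells) did not overlap with those of the other paralogs in either condition, while the bounds of mRpS18B and mRpS18C overlapped. In human mitochondria the counterparts of mRpS18A and of mRpS30 sit in the large subunit in spite of their names. The predicted proteins have 155, 204 and 140 residues for mRpS18A, mRpS18B and mRpS18C. Aligned, mRpS18A and mRpS18B were identical at 26.3% of positions, mRpS18A and mRpS18C at 24.2%, and mRpS18B and mRpS18C at 25.2%.

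Several further members, picked by name, were spread through the distribution. The stalk protein gene mRpL12, whose product recruits translation factors, had 121 FPKM (94.5 to 148) in 20E cells and 119 FPKM (92.4 to 145) in DMSO cells. The protein of mRpL10 holds the stalk to the ribosome, and its gene had 49.9 FPKM (32.6 to 67.3) in 20E cells and 50.7 FPKM (33.6 to 67.7) in DMSO cells. The bounds of mRpL12 and mRpL10 did not overlap in either condition. Bounds were likewise apart in 36.5% of all pairs of members in 20E cells and 38.2% in DMSO cells. The gene mRpL10 also shares its locus with the listed genes CG11617 and CG11490. Several copies of the stalk protein bind to each copy of its anchor in bacterial and mitochondrial ribosomes. Any link between these protein copies and the levels of mRpL12 and mRpL10 was not tested. Levels of mRpS30 were 75.6 FPKM in 20E cells and 73.2 FPKM in DMSO cells. The mitochondria-specific mRpS35 had 73.8 FPKM in 20E cells and 76.2 FPKM in DMSO cells, and mRpS22, whose human counterpart is affected in an inherited mitochondrial disease, had 66.4 FPKM in 20E cells and 61.8 FPKM in DMSO cells.

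The order of the genes by level was nearly the same in both conditions. Over the 72 members, Pearson r of log2(FPKM + 1) between 20E cells and DMSO cells was 0.988 and Spearman rho was 0.980; these are descriptions across genes that share libraries, not tests. Of the members, 59 moved by at most 5 places in the order and the largest move was 13 places. The 10 highest genes were the same in 20E cells and DMSO cells, and 8 of the 10 lowest were shared. None of the 71 pairs of neighbours in the order had bounds apart in 20E cells or in DMSO cells, and of all 2556 pairs of members 36.5% had bounds apart in 20E cells and 38.2% in DMSO cells. The bounds therefore resolve the high from the low members but not their exact order.

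Treatment with 20E for 1 h left the levels of these genes close to those in DMSO cells. On the log2((20E + 1) / (DMSO + 1)) scale the median change was 0.05 over all members, 0.06 over small subunit genes and 0.03 over large subunit genes, and it was 0.01 over the other genes in the same range of levels. The order of the subunits turned among the 31 members that share no exon base, where the median was 0.0040 for the small and 0.05 for the large subunit. Of the members, 45 of 72 were higher in 20E cells by point value (17 of 26 in the small subunit and 28 of 46 in the large subunit), a share of 62.5%, beside 53.9% of the other genes in the range. In 79.2% of members the FPKM differed by less than 10%, and the same was true of 78.3% of those other genes. The changes ran from -0.27 to 0.40, with an SD over members of 0.11, beside 0.22 over the other genes in the range, while the interquartile range was alike at 0.13 and 0.14. Within the family the SD was 0.08 for the small and 0.13 for the large subunit.

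No member passed a ratio of 2 in either direction, where 0.295% of all 15598 genes were past it with the higher value in 20E cells and 0.0321% with the lower value. The bounds were apart for none of the 72 members, whereas they were apart with the higher value in 20E cells for 0.43% of all genes and with the lower value for 0.0769%. Of all 72, only mRpL42 had FPKM + 1 more than 25% higher in 20E cells, beside 2.49% of all genes. On the lower side 0 members had a ratio under 0.8, beside 2.01% of all genes. The counts of the family thus lie near these small backgrounds.

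**Figure D2:**
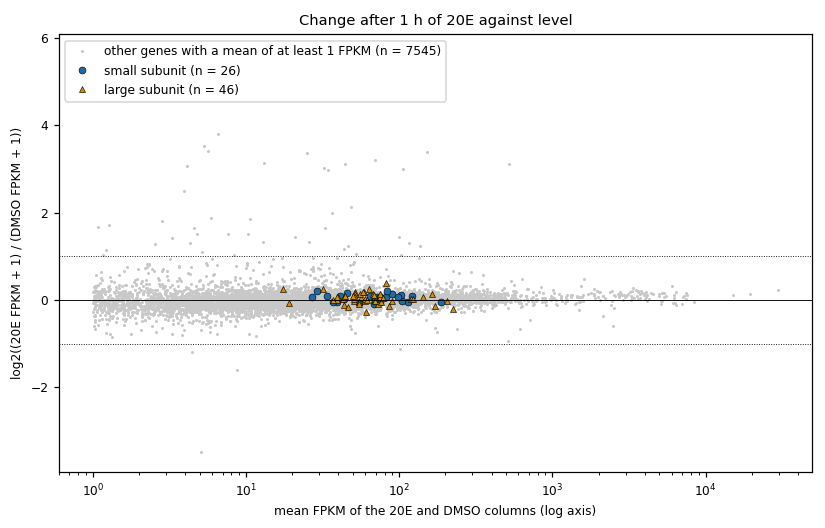
Change between 20E cells and DMSO cells on the log2((20E + 1) / (DMSO + 1)) scale against the mean FPKM of both columns on a log axis; grey points are the other genes with a mean of at least 1 FPKM, blue circles small subunit genes and orange triangles large subunit genes. All 72 members lie between -0.27 and 0.40, inside the dotted lines that mark a ratio of 2 in each direction.

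The largest difference of any member was that of mRpL42, a mitochondria-specific large subunit gene. It had 93.2 FPKM (62.6 to 124) in 20E cells and 70.6 FPKM (49.4 to 91.7) in DMSO cells, a change of 0.40, with bounds that overlapped over a wide stretch. Next on the higher side came mRpL54 at 0.26, mRpL13 at 0.25, mRpL53 at 0.25 and mRpS5 at 0.21, all on the same log2 scale. For mRpL53 the levels were 68.7 FPKM (16.2 to 121) in 20E cells and 57.7 FPKM (15.6 to 99.8) in DMSO cells. The gene of the homologue of a bacterial decoding accuracy protein, mRpS5, had 89.0 FPKM (50.3 to 128) in 20E cells and 76.8 FPKM (53.8 to 99.8) in DMSO cells. In each of these 5 genes the interval between the bounds was larger than the difference between the conditions.

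On the lower side, mRpL18 had 54.6 FPKM (27.1 to 82.0) in 20E cells and 65.8 FPKM (38.5 to 93.1) in DMSO cells, a change of -0.27. In bacteria, the homologue of this protein binds the smallest ribosomal RNA. It was followed by mRpL34 at -0.20, mRpL51 at -0.17, mRpL55 at -0.14 and mRpL23 at -0.14. The mitochondria-specific mRpL51 had 43.4 FPKM (24.6 to 62.1) in 20E cells and 48.8 FPKM (28.7 to 68.9) in DMSO cells. The homologue of mRpL23 lies at the exit of the protein tunnel in bacteria, and the fly gene had 82.1 FPKM (46.7 to 118) in 20E cells and 90.3 FPKM (62.4 to 118) in DMSO cells. All of these intervals overlapped, too, and 3 of the 5 genes with the largest higher values (mRpL42, mRpL13 and mRpL53) and 4 of the 5 with the lowest (mRpL18, mRpL34, mRpL51 and mRpL23) share a locus with another listed gene.

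Such shared loci were common in the family. A locus is the interval that the deposited table gives for a gene, and 40 of the 72 members (55.6%) had the same interval as at least one other gene, beside 41.4% of all genes. Whether the authors' counting used the strand is not given in the sources used here, so reads of overlapping genes may have been divided by estimation. In the 40 members that share a locus the bounds lay, at the median, 33.4% of the FPKM above the value in 20E cells and 33% in DMSO cells. In the 32 members alone in their locus it was 23.1% in both conditions. Beside mRpL18, which lies with ox and Taz, the respiratory chain gene ox had 744 FPKM in 20E cells and 626 FPKM in DMSO cells. The partner of mRpL42, the kinase gene cdc2rk, had 12.7 FPKM in 20E cells and 12.3 FPKM in DMSO cells, and the partner of mRpL23, CG8993, had 96.4 FPKM in 20E cells and 75.3 FPKM in DMSO cells. The changes of CG8993 and ox, 0.35 and 0.25, were opposite in sign to those of mRpL23 and mRpL18. Taz (-0.06), the other partner of mRpL18, and CG8414 (-0.21), the partner of mRpL34, changed in the same direction as their neighbours, and CG13089, the partner of mRpL51, had 0.02. Any part of the partners in the values of these members was not tested.

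In the BDGP6 annotation, 39 of the 70 members found there share exon bases with another listed gene. The whole of mRpL53 (100% of its exon bases) is covered by CG33155 and AGO1, and mRpL53 had some of the widest bounds of the family. Large shares were also present in mRpS24 (55.3%, with CG6182), mRpS21 (48%, with CG8870), mRpS14 (35.8%) and mRpL13 (35.2%, with CG10602). The bounds of mRpL16, which shares 7.62% of its exon bases with the highly expressed arm, were the widest relative to the FPKM, at 70.6 FPKM (10.0 to 131) in 20E cells and 64.5 FPKM (9.87 to 119) in DMSO cells. Likewise, mRpL9 lies in a locus with FK506-bp1 (306 FPKM in 20E cells and 300.0 FPKM in DMSO cells) and had 61.4 FPKM (18.9 to 104) in 20E cells and 54.0 FPKM (15.2 to 92.8) in DMSO cells. The width of the bounds and the share of exon bases in common did not go together in every member. Their relation over the family was not tested. The partner of mRpS21, CG8870, was near 0, with 0.0572 FPKM in 20E cells and 0.180 FPKM in DMSO cells. In mRpS21, with its large share, the bounds lay 23.2% of the FPKM from the value in 20E cells and 23% in DMSO cells, whereas in mRpL9, which shares 0.63%, they lay 69.2% from it in 20E cells and 71.8% in DMSO cells.

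The transcript table lists a single transcript for 58 members and several for the other 14, which have 33 transcripts in all. In 7 of these 14 (mRpL14, mRpL21, mRpL23, mRpL28, mRpS16, mRpS5 and mRpS6) a second transcript carried at least 10% of the FPKM of the gene in a condition. The transcripts with the most FPKM differed between the conditions in mRpL14, mRpL23 and mRpS16, although the sums per gene were similar. No bounds were used for transcripts, so these values have no error. The same shares over all genes with several transcripts are not given, so the counts above only describe these members.

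For mRpS16, transcript FBtr0087578 had 67.1 FPKM in 20E cells and 12.2 FPKM in DMSO cells, whereas FBtr0310367 had 38.6 FPKM in 20E cells and 95.7 FPKM in DMSO cells. The third transcript, FBtr0310368, had 18.8 FPKM in 20E cells and 9.26 FPKM in DMSO cells. In mRpL23, FBtr0072900 stood at 47.3 FPKM in 20E cells and 17.7 FPKM in DMSO cells, and FBtr0331415 at 33.9 FPKM in 20E cells and 72.3 FPKM in DMSO cells. Of the transcripts of mRpL14, FBtr0070405 had 131 FPKM in 20E cells and 83.3 FPKM in DMSO cells. The other, FBtr0333730, had 71.2 FPKM in 20E cells and 123 FPKM in DMSO cells. In all 3 genes one transcript was higher and another lower in 20E cells by similar amounts of FPKM.

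Of the 91 transcripts, 3 were past a ratio of 2 with the higher value in 20E cells (FBtr0072900 of mRpL23, FBtr0087578 of mRpS16 and FBtr0306093 of mRpS6), beside 1.83% of all 28704 transcripts. On the lower side, 2 were under 0.5 (FBtr0331415 of mRpL23 and FBtr0310367 of mRpS16), beside 1.03% of all transcripts. All 5 came from genes with several transcripts. The minor transcript FBtr0306093 of mRpS6 had 3.77 FPKM in 20E cells and 0.730 FPKM in DMSO cells, while FBtr0073288, the main one, had 23.7 FPKM in 20E cells and 25.5 FPKM in DMSO cells.

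**Figure D3:**
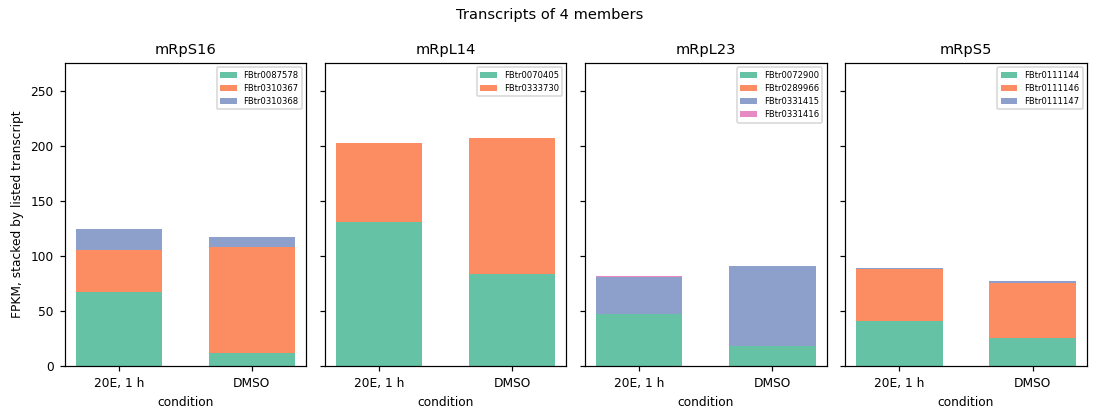
FPKM of the listed transcripts of mRpS16, mRpL14, mRpL23 and mRpS5, stacked within each condition, 20E cells (1 h) on the left and DMSO cells on the right. The height of each stack is similar in both conditions, while the shares of the colours differ, as for mRpS16, where FBtr0087578 has 67.1 FPKM in 20E cells and 12.2 FPKM in DMSO cells.

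The other genes with a second transcript of at least 10% kept the same leading transcript. In mRpS5, FBtr0111146 had 47.3 FPKM in 20E cells and 49.6 FPKM in DMSO cells, and FBtr0111144 had 40.9 FPKM in 20E cells and 25.4 FPKM in DMSO cells. The share of FBtr0333224 in mRpL21 was 28.5% in 20E cells and 36.1% in DMSO cells. In mRpL28, FBtr0331227 carried 10.1% in 20E cells and 16.5% in DMSO cells.

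Level and transcript length were weakly related over the 70 members matched in BDGP6 (mRpS5 and mRpS34 were not matched by identifier). Spearman rho between FPKM and the length of the main transcript was -0.32 in 20E cells and -0.33 in DMSO cells, as a description across genes. For mRpL42 and mRpS16, both under 600 bases, the listed transcript with the highest mean FPKM was not in BDGP6. Another transcript of the gene stood in for it, here and for the promoter, introns and predicted protein. In mRpL42 this stand-in, FBtr0088403, had 0 FPKM in 20E cells and 0.916 FPKM in DMSO cells. The 10 genes with the highest DMSO level had a median transcript length of 599.5 bases (327 to 789), and the other 60 had 753.5 bases. Members under 600 bases (n = 16) had a median of 96.4 FPKM in 20E cells and 92.9 FPKM in DMSO cells. Members of at least 600 bases (n = 54) had 56.1 FPKM in 20E cells and 55.8 FPKM in DMSO cells. The FPKM of short transcripts depends most on how the authors' program corrects for fragment length. Its part in this relation was not tested, and mRpS6 and mRpS18C, with 535 and 528 bases, were among the lowest genes of the small subunit.

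**Figure D4:**
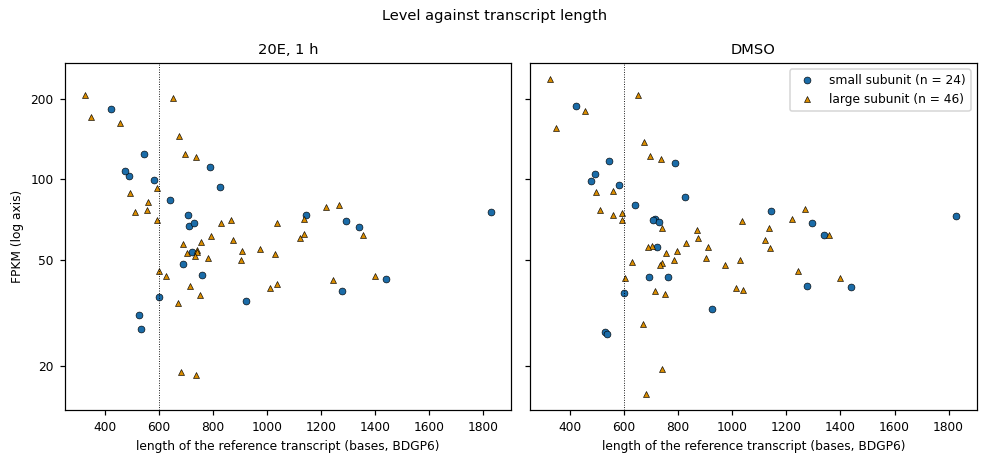
FPKM on a log axis against the length of the main transcript in bases (BDGP6) in 20E cells (1 h, left) and DMSO cells (right); circles are 24 small subunit genes, triangles 46 large subunit genes, and the dotted line marks 600 bases. The genes above 150 FPKM in 20E cells have at most 653 bases, whereas genes above 1000 bases lie below 80 FPKM.

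The genes and their proteins are small. The median transcript length was 738.5 bases, beside 1591 bases over all protein-coding genes listed, and the median number of introns was 1, beside 2. The predicted proteins had a median of 190.5 residues (64 for mRpL33 to 557 for mRpS30), beside 383 residues over all genes. Within residues 2 to 31, where a presequence would lie, the net charge (lysine and arginine minus aspartate and glutamate) had a median of 4 in the family and 0 over all genes. It was positive in 69 of the 70 proteins (98.6%), mRpS6 being the exception at 0, and in 49.5% of all proteins. Cytosolic ribosomal proteins, which are basic along their whole length and carry no presequence, had a median charge of 5 in this stretch and were positive in 88.2%. The charge alone therefore does not show a presequence.

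The promoters of the family, taken as 250 bases before to 50 bases after the start of the main transcript in BDGP6, often held the letters CAGCTG, an E-box that reads the same on both strands. It was present in 39 of 70 promoters (55.7%), in 54.2% of the small and 56.5% of the large subunit genes. Of the promoters of all 13968 protein-coding genes, 18.2% held it, as did 21.8% of the other genes in the same range of levels, 12.5% of the cytosolic ribosomal protein genes and 25% of 28 respiratory chain and ATP synthase genes. Within 75 bases before to 50 bases after the start, a window chosen after the positions were seen, it was present in 52.9% of members and 11.2% of all genes. Of the 44 copies in the family, 38 lay in that window. The windows around CAGCTG are shown for 8 members with high levels, because this sequence near the start is what most members share. The capitals mark CAGCTG, and each is written 5′ to 3′ on the strand of its gene.
mRpL14: gtccgctcttaaCAGCTGcttgctctgtta
mRpS21: agtgatattcatCAGCTGtttagcagtaca
mRpL55: cggtcacactatCAGCTGcctggcagcaaa
mRpL33: gataggcgcagtCAGCTGttcttcgttcct
mRpS33: gcacttggaaatCAGCTGtcgcttgttttt
mRpS14: gtatgggctcatCAGCTGttgcctatcgat
mRpL23: gtggttgacaatCAGCTGtttaaaacaagt
mRpS25: tagccgaccgatCAGCTGttcgcattacac

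In BDGP6 these windows lie at chrX:2344704-2344733 (mRpL14), chr3R:13381790-13381819 (mRpS21), chr3R:19094874-19094903 (mRpL55), chrX:4322207-4322236 (mRpL33), chr3R:16436566-16436595 (mRpS33), chrX:19479958-19479987 (mRpS14), chr3L:2373715-2373744 (mRpL23) and chrX:14582959-14582988 (mRpS25), all on the minus strand. Counted with the first transcribed base as 1, CAGCTG begins at base 3 in mRpS21, 7 in mRpS25, 8 in mRpL33 and 15 in mRpL55 and mRpS33, inside the first exon. It begins at -28 in mRpL23, -58 in mRpS14 and -72 in mRpL14, before the start. The 39 members that hold CAGCTG had a median of 58.3 FPKM in 20E cells and 56.5 FPKM in DMSO cells, beside 68.7 FPKM in 20E cells and 64.5 FPKM in DMSO cells for the 31 that do not. A match of letters does not show that a factor binds there.

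Of the other motifs, the DNA replication-related element TATCGATA was found in 22.9% of member promoters, beside 9.22% of all promoters, 17.3% of the promoters of genes in the same range of levels and 26.1% of those of cytosolic ribosomal protein genes. The TATA box TATAAA was found in 45.7% of members and 45.6% of all promoters, CACGTG in 5.71% and 4.2%, GCGCANGC in 5.71% and 3.46%, and GGTCACAC in 11.4% and 7.88%. The nuclear receptor half-site AGGTCA was in 1 of 70 promoters (1.43%) and in 5.82% of all promoters, and GAGAG in 17.1% and 30.3%. Both strands were searched for each, and motifs may overlap.

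Many members start next to a gene on the other strand. In 48 of 70 members (68.6%) the start of a gene running the other way lay within 500 bases upstream, at a median of 283 bases. Of all protein-coding genes 23.6% had such a neighbour, as did 40.9% of the other genes in the same range of levels and 34.1% of the cytosolic ribosomal protein genes. The arrangement was present in 75% of small and 65.2% of large subunit genes. In 12 members the distance was at most 100 bases, for example 20 bases between mRpL18 and Taz, 24 bases between mRpL23 and CG9004 and 95 bases between mRpL55 and ATPsynD, which encodes a subunit of the ATP synthase. A promoter window can then include the first bases of the neighbour, so the motif shares describe the shared region rather than a single gene.

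The members lie on all 5 large chromosome arms. Of the 72, 12 lie on 2L, 12 on 2R, 17 on 3L, 20 on 3R and 11 on X, which is 16.7%, 16.7%, 23.6%, 27.8% and 15.3% of the family, beside 19%, 20.6%, 19.1%, 23.5% and 15.2% of all genes. These arms are those of the deposited table, which does not name its genome build.

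Genes that work with the mitochondrial ribosome were compared as lists. The small subunit genes tko and bonsai, which carry other names, resembled the family at 76.3 and 78.8 FPKM in 20E cells and 74.5 and 79.3 FPKM in DMSO cells, and CAGCTG occurred in both promoters. The list drawn around translation factors held 5 genes out of 19 symbols sought, with mTTF and bsf among them. The elongation factor gene EfTuM was the highest, with 132 FPKM in 20E cells and 121 FPKM in DMSO cells. The median of the list was 19.6 FPKM in 20E cells and 16.7 FPKM in DMSO cells. The GTPase gene waw had the largest positive change of the list, 0.22, and the transcription termination factor gene mTTF, which is also on the next list, had the largest negative one, -0.10. The only mitochondrial tRNA synthetase gene matched by name, Aats-ala-m, had 18.7 FPKM in 20E cells and 18.6 FPKM in DMSO cells. The next list covered mitochondrial DNA expression broadly, with 11 genes that include scu, bsf and Mppe, not only replication and transcription genes. Its median was 26.8 FPKM in 20E cells and 25.4 FPKM in DMSO cells, and its median change was 0.04. The single-stranded DNA-binding protein gene mtSSB, the highest, had 328 FPKM in 20E cells and 309 FPKM in DMSO cells, and TFAM, the packaging factor of mitochondrial DNA, had 141 FPKM in 20E cells and 124 FPKM in DMSO cells. The lowest in DMSO cells was the transcription factor gene mtTFB2, with 7.51 FPKM in 20E cells and 7.22 FPKM in DMSO cells. Bounds were apart for none of these genes.

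Respiratory chain and ATP synthase genes of the nucleus (29 listed of 42 symbols sought) were higher than the ribosomal genes, with a median of 406 FPKM in 20E cells and 403 FPKM in DMSO cells and a median change of 0.05. The highest of them, ATPsyn-gamma, had 1226 FPKM in 20E cells and 1247 FPKM in DMSO cells, and 0 of 29 had bounds apart. The cytochrome oxidase subunit gene cype had the largest positive change, 0.27, with 525 FPKM in 20E cells and 435 FPKM in DMSO cells. The lowest was Cyt-c-d, a cytochrome c gene, with 0.263 FPKM in 20E cells and 0.702 FPKM in DMSO cells. The 93 genes named as cytosolic ribosomal proteins had a median of 3379 FPKM in 20E cells and 3224 FPKM in DMSO cells. Their median change was 0.10, and bounds were apart for RpS6 on the higher side and RpS28a on the lower side. The value of RpS6 was 24.3 FPKM in 20E cells and 1.90 FPKM in DMSO cells, and RpS28a was listed at 0 in 20E cells and at 0.895 FPKM in DMSO cells. Both genes lay far below the median of the list in each condition, and the source of their differences was not tested.

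**Figure D5:**
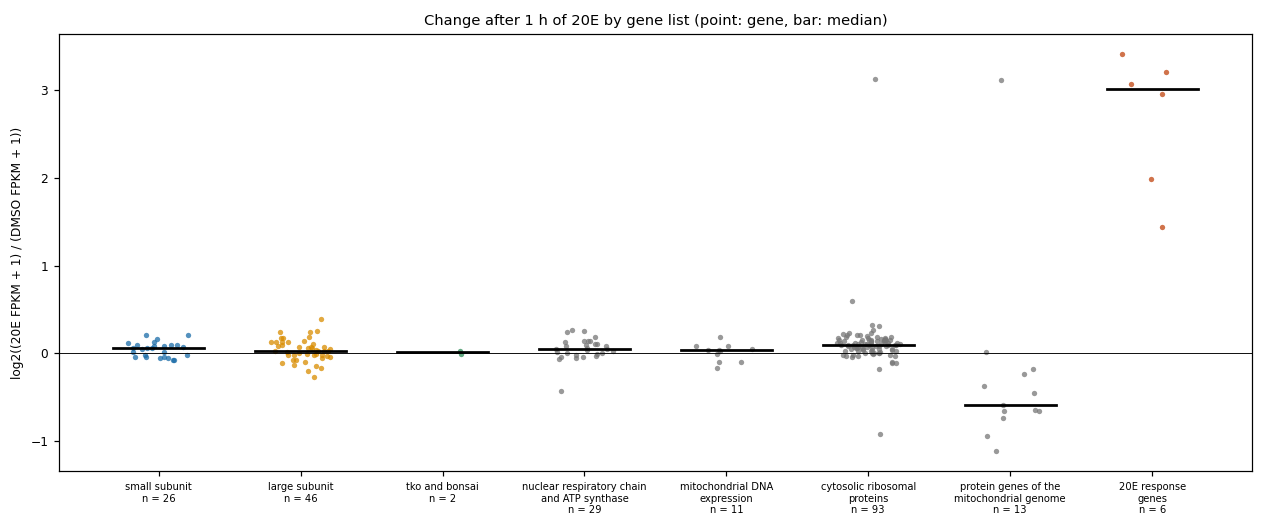
Change between 20E cells and DMSO cells on the log2((20E + 1) / (DMSO + 1)) scale for each gene of the small subunit, the large subunit and 6 lists outside the family; points are genes and bars are medians. The medians of both subunits (0.06 and 0.03) lie near 0, beside 3.02 for the 20E response genes and -0.59 for the protein genes of the mitochondrial genome.

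The transcripts that the mitochondrial ribosome translates differed more than its proteins' genes. The 13 protein genes of the mitochondrial genome had a median of 477 FPKM in 20E cells and 679 FPKM in DMSO cells, a median change of -0.59, and 11 of 13 were lower in 20E cells, 5 of them with bounds apart. Examples are mt:ND2, with 352 FPKM (269 to 435) in 20E cells and 679 FPKM (533 to 824) in DMSO cells, and mt:ND6, with 63.4 FPKM (47.7 to 79.2) in 20E cells and 139 FPKM (106 to 172) in DMSO cells. The highest in DMSO cells, mt:ATPase6, had 1987 FPKM in 20E cells and 2986 FPKM in DMSO cells. In contrast, mt:ATPase8 had 933 FPKM in 20E cells and 107 FPKM in DMSO cells, with a lower bound of 0 in both conditions. Both mitochondrial ribosomal RNA genes were listed at 0 in 20E cells and in DMSO cells. The libraries were made from polyA RNA, and the part of RNA selection in the mitochondrial values was not tested.

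Regulators of nuclear genes for mitochondrial proteins were present at levels near those of the family. The 7 listed of 10 symbols sought had a median of 68.8 FPKM in 20E cells and 66.1 FPKM in DMSO cells, a median change of 0.04 and no bounds apart. Dref, the factor that binds TATCGATA, had 68.8 FPKM (11.4 to 126) in 20E cells and 66.1 FPKM (11.9 to 120) in DMSO cells, with wide bounds. The NRF-1 homologue ewg was the lowest, with 6.80 FPKM in 20E cells and 7.47 FPKM in DMSO cells, and BEAF-32, an insulator protein gene, was the highest in DMSO cells, with 87.1 FPKM in 20E cells and 94.3 FPKM in DMSO cells.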

How the data were processed

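PolyA RNA of S2 cells was sequenced by the authors after 1 h with 20E or DMSO. The authors deposited FPKM values per gene and per transcript, 1 column per condition from 2 libraries, with bounds per gene; how the libraries were combined, the level of the bounds and the genome build are not given in the sources used here. The submitters' processing notes list Bowtie2 2.3.4.2, TopHat2, bcl2fastq 2.17.1.14 and deepTools 3.0.2 without a role. Columns with the authors' fold changes, test statistics, p-values and q-values for transcripts were not used, and the ChIP-seq samples were not analysed here.

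The change of a gene was computed as log2((20E + 1) / (DMSO + 1)), with a pseudocount of 1 FPKM. No test was possible with 1 value per condition, so counts and medians were set beside those of all genes. Genes were named by rule: the 5 highest and 5 lowest in DMSO of each subunit, the 5 largest changes in each direction, genes with a second transcript of at least 10%, the mRpS18 paralogs and 7 picked by name. Partners in shared loci, the genes with the widest bounds and the genes with the largest shares of exon bases in common were chosen after their values were seen. Lists came from general knowledge, and the members and lists were chosen with earlier results of these data known.

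Promoters, transcript lengths, exon overlap and predicted proteins came from the BDGP6 annotation and the Release 6 genome of RefSeq, matched by identifier. For genes with a listed transcript in BDGP6, the main one was that of highest mean FPKM among those found there. The motif GGTCACAC and the window of 75 bases before the start were added later. The counting procedures were tested on simulated data. Python 3.11.15, NumPy 2.4.6, pandas 2.3.3, SciPy 1.17.1, Biopython 1.88 and Matplotlib 3.10.9 were used.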

Additional observations from a re-analysis of the deposited data

How the results depend on the processing

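No paired analysis was possible because the deposited tables give a single column for 20E cells and a single column for DMSO cells. Leaving out a library could not be done for the same reason. The 14 summaries of the family were recomputed under up to 9 alternatives, each summary under those that apply to it (pseudocount of 0.1 or none, centring, scaling, a mean of at least 5 FPKM, summed transcripts, members alone in their locus, members with no exon base shared, and transcripts of at least 600 bases). The alternative on shared exon bases was chosen after seeing the data. The number of members more than 25% higher in 20E cells was 0 among the 32 members alone in their locus and 0 among the 31 with no exon base shared, beside 1 (mRpL42) in the whole family, since mRpL42 is not among them. All 288 recomputed changes of single members stayed within the median distance of the bounds from the value, 26.7% of the FPKM. For single members the alternatives were the pseudocounts, centring and summed transcripts, which leave genes at these levels nearly unchanged. That check could therefore hardly fail. The other 80 recomputed summaries stayed within the same distance, but this limit is that of a single gene and is too wide to judge a median. The median change ran from 0.03 to 0.05 over all members, from 0.0040 to 0.06 over the small subunit and from 0.03 to 0.05 over the large subunit. The order of the subunits turned among members with no exon base shared (0.0040 small and 0.05 large). The cause was not tested. The median DMSO level ran from 68.5 to 74.7 FPKM for the small and from 54.0 to 69.9 FPKM for the large subunit. Counts past a ratio of 2 or with bounds apart stayed at 0. In a subset of the members these counts could only be 0, and a mean of at least 5 FPKM removed no member. Those alternatives therefore do not test the counts. With bounds of this width on both sides, a single gene needs a larger difference than that of mRpL42 for its bounds to come apart.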
